A study of Mus musculus with 6 samples.

Results

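Translation initiation factors are the proteins that bring the initiator tRNA, the ribosomal subunits and a capped mRNA together at a start codon. Their genes were taken by name, as probes with 1 annotated gene symbol that begins with Eif1 to Eif6, leaving out the Eif2ak kinases. This gave 54 of the 28815 probes on the array, which belong to 45 of the 19935 genes tested. The naming rule itself uses no measured value, though it was chosen with earlier results of these data known. No probe with a single symbol named Eif1, Eif2s1, Eif3g, Eif3j1, Eif3j2, Eif4g1 or Eif4ebp3, and these factors were not analysed here.

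The cells were peritoneal macrophages of C57BL/6 mice, kept in culture. Control cells were not treated, a further group received poly I:C, a double-stranded RNA that activates TLR3, at 2 ug/mL for 24 h, and the last received PAM, a lipopeptide that activates TLR2, at 1 ug/mL for 24 h. Sample labels name the PAM compound as PAMCSK3 for one replicate and PAMCSK4 for the other, and give no culture time for the controls. Each of the 3 groups held 2 arrays. Whether the 2 arrays of a group stem from different mice or cultures is not labelled, so p-values here speak of sample-to-sample spread only, and that spread may be technical. The study asked which genes the TLR3 ligand raised and the TLR2 ligand lowered, relative to control.

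Every deposited value is a difference, on a log scale taken as log2, from that probe's median over the 6 arrays. A value of 0 is therefore the middle of a probe's own arrays, and no gene's level can be set against another's. For the same reason the labelled cell type could not be checked by the levels of its markers. Differences between groups are given as log2 value ± SE with n = 2 arrays per group, from limma fitted over all genes, and "rose" or "fell" is used where the Benjamini-Hochberg adjusted p was under 0.05. The median SE of a member's difference was 0.067. Rounding steps in the deposited numbers mark probes whose uncentred values were at least 8 on every array. They marked 42 of the 54 initiation factor probes (77.8%) and 28.8% of all probes. No probe of Eif2s3y, Eif2d, Eif2b4, Eif4a2, Eif4a3l1, Eif4e1b, Eif4ebp2 or Eif5a2 was marked. The calls given below for Eif2b4, Eif4a2, Eif4ebp2 and Eif5a2 each rest on 1 such unmarked probe.

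Initiation runs through a few complexes. The factor eIF2 carries the initiator tRNA and is recharged with GTP by eIF2B, a step that the eIF2α kinases block. The large factor eIF3 organises the small ribosomal subunit, and the eIF4 factors bind the mRNA cap and unwind the leader. The eIF4E-binding proteins hold the cap-binding protein back until the kinase mTOR releases it, and in macrophages this control is known to shape the output of cytokine and interferon regulators.

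The largest changes among the members were increases of Eif6 with either ligand, of Eif2b2 with poly I:C and of Eif2b3 with PAM. Eif6 rose 1.91-fold and 1.82-fold, Eif2b2 rose 1.84-fold with poly I:C and Eif2b3 rose 1.73-fold with PAM. The largest decrease was that of Eif4b, by 1.48-fold with poly I:C and 1.47-fold with PAM. None of the 45 genes changed 2-fold in any comparison. How many of all genes did so was not counted, so nothing particular to the members can be read from this. With poly I:C 9 members rose and 14 fell, against 12.1% of all genes higher and 18.2% lower. With PAM 10 rose and 8 fell, against 11% and 14% of all genes. Between the ligands 3 members were higher with poly I:C and 9 were higher with PAM, where the shares over all genes were 12.9% higher and 15.8% lower under poly I:C. Several of these counts were lower in fits without 1 array, which leave 1 array in a group. In the fits named next the share of all genes that passed was also lower. Without control replicate 1 that share was higher in each comparison. With poly I:C, 4 members rose and 8 fell without poly I:C replicate 1, and 5 rose and 8 fell without poly I:C replicate 2. With PAM, 6 rose and 4 fell without PAM replicate 2, 3 fell without PAM replicate 1 and 5 fell without control replicate 2. Between the ligands 1 member was higher with poly I:C without poly I:C replicate 1, PAM replicate 1 or PAM replicate 2.

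Members passed in 51.1%, 40% and 26.7% of cases in the 3 comparisons, beside 30.4%, 25% and 28.7% of all genes. Restricted to genes with probes at 8 or above, 62.2% of 37 members passed with poly I:C, 54.1% with PAM and 45.9% between the ligands. The corresponding shares of all such genes were 64.7%, 57.4% and 63.8%. The median difference over the members was -0.022 with poly I:C and 0.020 with PAM, beside 0.0081 and -0.0015 over all genes tested, and -0.014 beside 0.011 between the ligands. The members did not move as one group, and the results below follow single factors by their role. Both ligands were compared with the same control arrays, so their values are given side by side and tested only by the direct comparison.

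**Figure D1:**
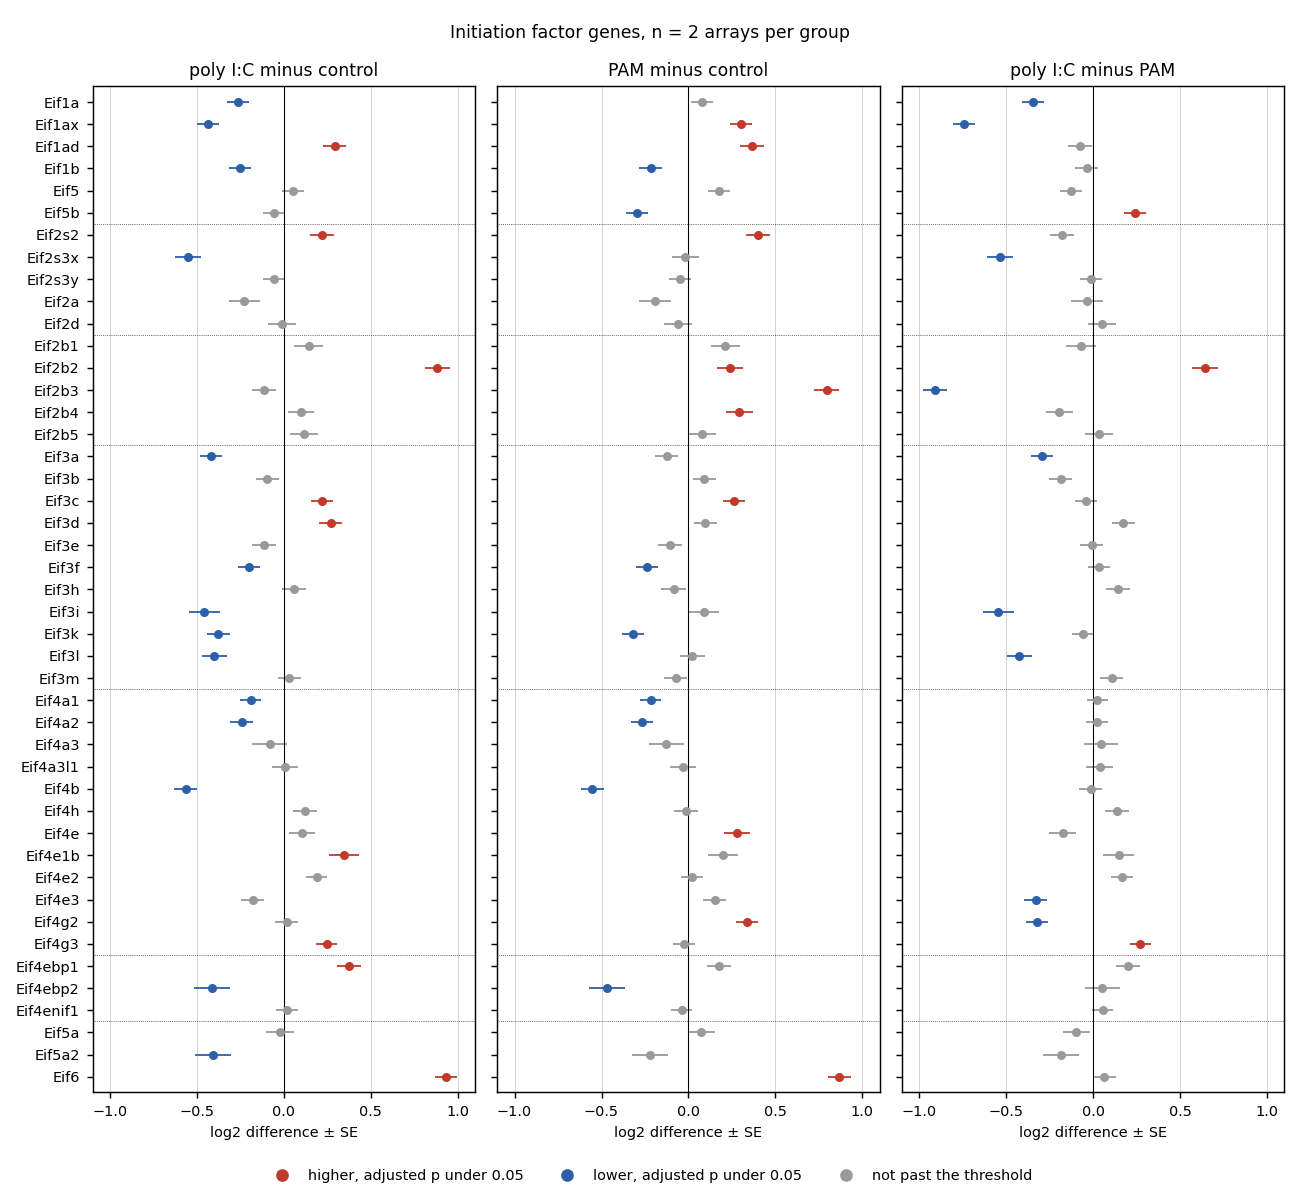
Log2 difference ± SE of each of the 45 initiation factor genes for poly I:C minus control, PAM minus control and poly I:C minus PAM (n = 2 arrays per group), ordered by role with dotted lines between roles. Red points passed as higher and blue as lower at an adjusted p under 0.05, and Eif6, Eif2b2 and Eif2b3 lie farthest from 0.

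Promoters of members with large changes are shown so that their upstream bases can be read beside the values that follow. The RefSeq table (GRCm38.p6) held 47 windows, from 250 bases before to 50 after a start, for 35 of the 45 genes; Eif1a, Eif2b3, Eif3e, Eif3h, Eif3i, Eif4e1b, Eif4e3, Eif4ebp1, Eif4g2 and Eif6 had no entry. The last 100 bases before the start are printed, 5′ to 3′ on the gene's strand, with capitals at any motif searched.
Eif2b2, chr12:85219381-85219480, plus strand: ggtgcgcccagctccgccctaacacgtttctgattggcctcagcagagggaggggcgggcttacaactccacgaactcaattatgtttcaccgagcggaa
Eif2s3x, chrX:94212652-94212751, minus strand: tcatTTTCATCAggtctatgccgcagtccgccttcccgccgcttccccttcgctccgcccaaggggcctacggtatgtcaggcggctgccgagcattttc
Eif1ax, chrX:159372078-159372177, plus strand: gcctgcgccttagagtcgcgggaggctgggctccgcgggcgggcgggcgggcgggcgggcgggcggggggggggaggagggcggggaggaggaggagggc
Eif3l, chr15:79075123-79075222, plus strand: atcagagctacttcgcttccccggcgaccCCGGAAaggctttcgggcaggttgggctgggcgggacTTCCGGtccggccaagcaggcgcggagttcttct
Eif3k, chr7:28981889-28981988, minus strand: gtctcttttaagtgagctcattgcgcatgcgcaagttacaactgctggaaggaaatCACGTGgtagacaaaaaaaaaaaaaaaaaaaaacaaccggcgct
Eif4b, chr15:102073673-102073772, plus strand: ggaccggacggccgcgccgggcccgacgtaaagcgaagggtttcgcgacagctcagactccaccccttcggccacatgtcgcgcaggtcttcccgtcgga

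The motifs were searched on both strands of the whole window: CCGGAA, a core bound by ETS factors; CACGTG, the E-box read by MYC and USF factors; the interferon-stimulated response element; TGACGTCA, the cyclic AMP element; TGATGNAA, the amino acid response element; and the NF-kB motif. The ETS core was in a window of 19 of the 35 genes (54.3%), beside 16.7% of the 27025 genes of the table. Eif3l has it 71 and 34 bases before its start, and Eif2b2 within its window but outside the printed bases. The E-box was in 9 genes (25.7%, beside 8.09% of all genes), at 44 bases before the start of Eif3k. The interferon element was in Eif2s3x and Eif3a, 5.71% of the members with an entry, beside 3.99% of all genes.

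The amino acid element was in Eif2s3x alone (2.86%, beside 4.51%), 96 bases before the start. The cyclic AMP and NF-kB motifs were in none of the 35, and in 2.03% and 5.14% of all genes. A start with C followed by at least 4 pyrimidines, the form of mRNAs under mTOR control, was annotated for Eif2s3x and Eif3f (5.71%, beside 3.01%). These are matches of letters in 1 window per start and say nothing of binding.

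Factors of the eIF1, eIF1A and eIF5 kind guide the scanning ribosome. Of their 6 genes 1 rose and 3 fell with poly I:C, and 2 rose and 2 fell with PAM. Beside the counts of this and each later role, 12.1% of all genes rose and 18.2% fell with poly I:C. With PAM these shares were 11% and 14%, and between the ligands 12.9% were higher and 15.8% lower under poly I:C. Eif1ax, which encodes the eIF1A protein that helps select the start codon, stood at -0.014 and 0.014 on the control arrays, at -0.42 and -0.46 with poly I:C and at 0.29 and 0.31 with PAM. The 3 groups did not overlap, with poly I:C lowest and PAM highest. Eif1ax fell with poly I:C (-0.44 ± 0.063, adjusted p = 0.000624), rose with PAM (0.30 ± 0.063, adjusted p = 0.00672), and differed between the ligands by -0.74 ± 0.063 (adjusted p = 2.1e-05).

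Its relative Eif1a read 0.0084 and -0.0084 in control cells, -0.27 and -0.26 with poly I:C and 0.048 and 0.11 with PAM. It fell with poly I:C (-0.27 ± 0.063, adjusted p = 0.0111) and was lower there than with PAM (-0.34 ± 0.063, adjusted p = 0.00284), while its PAM difference was 0.077 without passing. Eif1b, a close relative of the start codon gatekeeper eIF1, was highest on the control arrays (0.18 and 0.23), against -0.016 and -0.075 with poly I:C and 0.016 and -0.035 with PAM. It fell with both (-0.25 and -0.22, adjusted p = 0.0171 and 0.0414).

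Eif1ad, which carries an eIF1A-like domain, was lowest in control cells, at -0.33 and -0.25. It read 0.024 and -0.024 with poly I:C and 0.042 and 0.11 with PAM, so both treated groups lay above the controls. It rose by 0.29 ± 0.068 with poly I:C and by 0.36 ± 0.068 with PAM. Eif5b, the GTPase that joins the large ribosomal subunit, stood apart only with PAM: its arrays read 0.046 and 0.064 in control cells, 0.026 and -0.026 with poly I:C and -0.26 and -0.21 with PAM. It fell with PAM (-0.29 ± 0.064, adjusted p = 0.00851) and was higher in the poly I:C group than in the PAM group (0.24 ± 0.064, adjusted p = 0.0204). Eif5, which triggers GTP hydrolysis on eIF2, differed by 0.052 and 0.18 without passing.

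Some of these calls ended in fits without 1 array. Such fits estimate the spread from fewer arrays, so a call can end while its difference hardly moves. The call of Eif1a with poly I:C ended without poly I:C replicate 1 or 2, with differences of -0.26 and -0.27. That of Eif1ad ended without poly I:C replicate 1, with a difference of 0.27. Eif1ax with PAM ended without PAM replicate 2 (adjusted p = 0.0525) and Eif5b with PAM without PAM replicate 1 (0.0749). Eif1b with PAM ended without any 1 of the 6 arrays, with differences between -0.24 and -0.19. Eif1b has a PAM difference that uses no poly I:C array, so leaving 1 of those out could not move it from -0.22. With poly I:C its call ended without control replicate 2 or poly I:C replicate 2, with a difference of -0.22 in each. Eif5b between the ligands ended without any 1 of their 4 arrays (adjusted p from 0.0585 to 0.135).

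Of 5 genes for eIF2 subunits and other carriers of the initiator tRNA, 1 rose and 1 fell with poly I:C, and 1 rose with PAM. Eif2s3x, the X-linked gene of the γ subunit that holds the initiator tRNA, stood at -0.020 and 0.14 on the control arrays, -0.45 and -0.53 with poly I:C and 0.020 and 0.064 with PAM. Poly I:C arrays lay below all others. Eif2s3x fell with poly I:C (-0.55 ± 0.075, 1.47-fold, adjusted p = 0.000452) and was lower there than with PAM (-0.53 ± 0.075, adjusted p = 0.000566), with a PAM difference of -0.018. Its Y-linked counterpart Eif2s3y differed by -0.059 and -0.049, and neither passed.

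Eif2s2, the β subunit gene, was lowest in control cells, where the mean of its 2 probes was -0.31 and -0.22. It read -0.026 and -0.062 with poly I:C and 0.093 and 0.17 with PAM. Of its 2 probes only 10578683 passed on its own, with both ligands, as given below. The mean of both probes rose by 0.22 ± 0.069 with poly I:C (adjusted p = 0.0385) and 0.40 ± 0.069 with PAM (adjusted p = 0.00238). The poly I:C call ended without any array other than control replicate 2 (adjusted p from 0.0598 to 0.162). Eif2a and Eif2d encode proteins that can deliver the initiator tRNA without eIF2. Eif2a differed by -0.23 and -0.19, and Eif2d by -0.0096 and -0.060, with no call.

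Of the 5 subunit genes of the exchange factor eIF2B, 1 rose with poly I:C and 3 with PAM, and 1 was higher and 1 lower in the direct comparison. They are Eif2b3 and Eif2b5 on the catalytic side and Eif2b1, Eif2b2 and Eif2b4 on the regulatory side. Eif2b2 read -0.26 and -0.22 on the control arrays, 0.63 and 0.65 with poly I:C and -0.084 and 0.084 with PAM. The poly I:C arrays lay above all others and the controls below. It rose with poly I:C (0.88 ± 0.074, adjusted p = 2.08e-05) and was higher there than with PAM by 0.64 ± 0.074 (1.56-fold, adjusted p = 0.000156). Its rise with PAM was 0.24 ± 0.074 (adjusted p = 0.0451). The PAM call of Eif2b2 was kept only without PAM replicate 1 and ended without any other single array (adjusted p from 0.0762 to 0.311, with a difference of 0.16 without PAM replicate 2).

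Eif2b3, the γ subunit, was highest with PAM. Its arrays read -0.0027 and 0.0027 in control cells, -0.093 and -0.14 with poly I:C and 0.72 and 0.87 with PAM. It rose with PAM (0.79 ± 0.071, adjusted p = 3.75e-05), differed by -0.11 with poly I:C without passing, and was 1.88-fold lower under poly I:C than under PAM (-0.91 ± 0.071, adjusted p = 1.23e-05). This was the largest difference between the ligands among the members, and it kept its call without any 1 of the 6 arrays.

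Eif2b4 read -0.065 and -0.13 in control cells, -0.059 and 0.059 with poly I:C and 0.13 and 0.26 with PAM. It rose with PAM (0.29 ± 0.077, adjusted p = 0.0217), a call that ended without control replicate 2 (adjusted p = 0.079) or PAM replicate 2 (0.166). Eif2b1 differed by 0.14 with poly I:C and 0.21 with PAM. Eif2b5, the catalytic ε subunit, stood at -0.21 and 0.0025 in control cells, -0.0025 and 0.027 with poly I:C and -0.051 and 0.0044 with PAM. Its groups overlapped, and its differences of 0.11 and 0.079 did not pass.

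**Figure D2:**
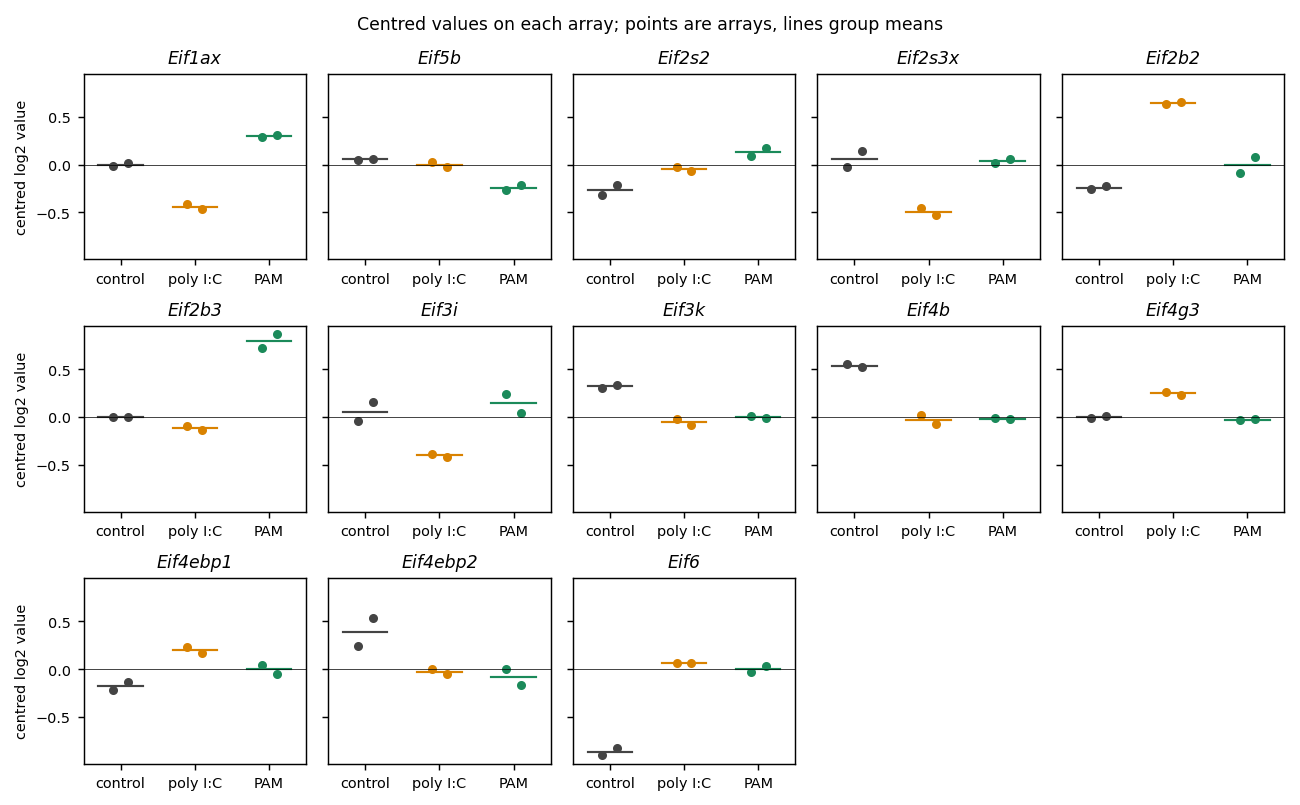
Centred log2 values on each array (points) with the mean of each group (lines) for the 13 genes among the 3 largest changes in a direction of any comparison. Eif2b2 is highest with poly I:C, Eif2b3 with PAM, and Eif6 lies near -0.90 and -0.83 in control cells and near 0 with either ligand.

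Of the 11 eIF3 subunit genes, 2 rose and 5 fell with poly I:C, and 1 rose and 2 fell with PAM. The shares over all genes were 12.1% and 18.2% with poly I:C, and 11% and 14% with PAM. Eif3i, a subunit on the outer arm of the complex, stood at -0.045 and 0.15 in control cells, -0.39 and -0.42 with poly I:C and 0.24 and 0.045 with PAM. Only the poly I:C arrays lay apart. It fell with poly I:C (-0.46 ± 0.091, adjusted p = 0.00409) and was 1.46-fold lower there than with PAM (-0.54 ± 0.091, adjusted p = 0.00154).

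Eif3l and Eif3k encode partner subunits at the edge of the complex, yet differed in pattern. Eif3l read -0.021 and 0.11 on the control arrays, -0.35 and -0.37 with poly I:C and 0.021 and 0.11 with PAM. It fell with poly I:C (-0.40 ± 0.072, adjusted p = 0.00233) and was lower there than with PAM (-0.42 ± 0.072, adjusted p = 0.00173). Eif3k read 0.31 and 0.34 in control cells, -0.023 and -0.090 with poly I:C and 0.0085 and -0.0085 with PAM, so its controls lay above both treated groups. It fell by 0.38 ± 0.064 with poly I:C and 0.32 ± 0.064 with PAM (adjusted p = 0.00171 and 0.00544). Its difference between the ligands was -0.056 and did not pass.

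Eif3a, the scaffold subunit, stood at 0.13 and 0.12 in control cells, -0.25 and -0.33 with poly I:C and -0.015 and 0.015 with PAM. It fell with poly I:C (-0.42 ± 0.065, adjusted p = 0.000955) and was lower there than with PAM (-0.29 ± 0.065, adjusted p = 0.00768), and the latter call ended without poly I:C replicate 2 (adjusted p = 0.0645) or PAM replicate 2 (0.0611). Eif3f read 0.18 and 0.22 in control cells, 0.011 and -0.011 with poly I:C and -0.053 and -0.020 with PAM. It fell by 0.20 and 0.24 (adjusted p = 0.0396 and 0.0227). Without any 1 of the 6 arrays the poly I:C call of Eif3f ended (adjusted p from 0.0525 to 0.159), and the PAM call ended without control replicate 2, PAM replicate 1 or PAM replicate 2 (0.0828, 0.137 and 0.087).

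Among subunits that rose, Eif3d, which can itself bind the cap of some mRNAs, read -0.12 and -0.076 in control cells, 0.20 and 0.15 with poly I:C and -0.030 and 0.030 with PAM. It rose with poly I:C (0.27 ± 0.065, adjusted p = 0.0118), a call that ended without poly I:C replicate 1 (adjusted p = 0.0757). Eif3c, a core subunit, read -0.21 and -0.23 in control cells, 0.0018 and -0.0018 with poly I:C and 0.045 and 0.038 with PAM. It rose by 0.22 with poly I:C and 0.26 with PAM. The first call ended without control replicate 2 (adjusted p = 0.0803), poly I:C replicate 1 (0.0971) or poly I:C replicate 2 (0.0988), and the second without PAM replicate 1 (0.083) or PAM replicate 2 (0.0734). Eif3b, Eif3e, Eif3h and Eif3m passed in no comparison, with differences from control between -0.12 and 0.091.

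Of 12 eIF4 genes 2 rose and 3 fell with poly I:C, and likewise 2 and 3 with PAM. The largest change was that of Eif4b, which stimulates the eIF4A helicase. Its control arrays read 0.55 and 0.52, those with poly I:C 0.016 and -0.079 and those with PAM -0.016 and -0.020. Both treated groups lay well below the controls. Eif4b fell by 0.57 ± 0.066 with poly I:C and by 0.55 ± 0.066 with PAM (adjusted p = 0.000168 and 0.000244), and both calls were kept without any 1 of the 6 arrays. The related helicase cofactor Eif4h differed by 0.12 and -0.015 without passing.

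Of the helicase genes Eif4a1 and Eif4a2 fell, each by less than Eif4b. Eif4a1 read 0.18 and 0.20 in control cells, -0.0030 and -0.00086 with poly I:C and -0.034 and -0.021 with PAM. It fell by 0.19 ± 0.062 and 0.22 ± 0.062 (adjusted p = 0.0445 and 0.0313), and each call ended without any 1 of the 6 arrays (adjusted p from 0.0798 to 0.146 with poly I:C and from 0.0533 to 0.154 with PAM). Eif4a2 read 0.25 and 0.22 in control cells, -0.020 and -0.00094 with poly I:C and -0.065 and 0.00094 with PAM. It fell by 0.24 and 0.27. Its poly I:C call ended without control replicate 1 (adjusted p = 0.053), poly I:C replicate 1 (0.0875) or poly I:C replicate 2 (0.0732), and its PAM call without PAM replicate 1 (0.118). Eif4a3, the helicase of the exon junction complex, differed by -0.082 and -0.13, and Eif4a3l1 by 0.0070 and -0.031, without passing.

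The scaffold genes measured here each followed 1 ligand. Eif4g2 encodes a scaffold that lacks the eIF4E-binding site and read -0.010 and -0.047 in control cells, 0.010 and -0.037 with poly I:C and 0.29 and 0.32 with PAM. It rose with PAM (0.34 ± 0.064, adjusted p = 0.00407) and differed between the ligands by -0.32 ± 0.064, poly I:C lower (adjusted p = 0.00431). Eif4g3 read -0.011 and 0.011 in control cells, 0.26 and 0.23 with poly I:C and -0.031 and -0.024 with PAM. It rose with poly I:C (0.25 ± 0.062, adjusted p = 0.0154) and was higher there than with PAM (0.27 ± 0.062, adjusted p = 0.00933). The first call of Eif4g3 ended without poly I:C replicate 1 (adjusted p = 0.0855) or 2 (0.0561), and the second without poly I:C replicate 1 (0.0629), PAM replicate 1 (0.0613) or PAM replicate 2 (0.057).

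Cap-binding proteins gave mixed readings. Eif4e3 read -0.047 and 0.047 in control cells, -0.21 and -0.15 with poly I:C and 0.15 and 0.15 with PAM. It passed only between the ligands (-0.33 ± 0.067, adjusted p = 0.00476), with differences of -0.18 and 0.15 from control. Eif4e2, whose protein competes for the cap, differed from control by 0.19 with poly I:C (adjusted p = 0.0503). Eif4e1b, known from the germ line, rose with poly I:C as the mean of its 2 probes (0.34 ± 0.089, adjusted p = 0.016), from -0.13 and -0.32 in control cells to 0.058 and 0.18, with 0.038 and -0.095 under PAM. That call ended without control replicate 2 (adjusted p = 0.0827) or poly I:C replicate 2 (0.129), and neither Eif4e1b probe was marked as at 8 or above.

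The probes of Eif4e, the main cap-binding protein, disagreed. As the mean of 3 probes the gene read -0.17 and -0.14 in control cells, -0.12 and 0.017 with poly I:C and 0.19 and 0.064 with PAM, and passed only with PAM (0.28 ± 0.076, adjusted p = 0.0258). The PAM call ended without control replicate 1 (adjusted p = 0.0666), control replicate 2 (0.051) or PAM replicate 1 (0.191). Tested on its own over all 21780 single-symbol probes, of which 12% rose and 18.7% fell with poly I:C (30.7% in all), probe 10496485 fell with poly I:C. It read -0.021 and 0.021 in control cells, -0.29 and -0.20 with poly I:C and 0.25 and 0.098 with PAM, and differed by -0.25 ± 0.076 (adjusted p = 0.0383).

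Probe 10599855 of the same gene rose with poly I:C (0.35 ± 0.079, adjusted p = 0.00839). It read -0.39 and -0.31 in control cells, -0.082 and 0.082 with poly I:C and 0.21 and 0.12 with PAM. It also rose with PAM (0.52 ± 0.079, adjusted p = 0.00131), where 11% of all probes rose and 13.9% fell (24.9% in all). The other Eif4e probe, 10496490, differed by 0.20 and 0.14 without passing. Between the ligands only probe 10496485 passed (-0.42 ± 0.076, adjusted p = 0.0027), where 12.7% of probes were higher and 16% lower (28.7% in all). Of the Eif4e probes, 10599855 alone was at 8 or above throughout. No single direction can therefore be given for Eif4e with poly I:C, and whether a probe also reads a near-identical copy of the gene was not tested.

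Of the 7 members with several probes, 4 had probes that did not pass alike. For Eif2s2, probe 10578683 read -0.46 and -0.45 in control cells, -0.041 and 0.041 with poly I:C and 0.098 and 0.082 with PAM, and rose with both (0.45 and 0.54). Its other probe, 10488806, differed by -0.0091 and 0.25 and passed with neither. For Eif4a1 all 3 probes fell with PAM, by 0.21, 0.21 and 0.23, while with poly I:C only probe 10387545 passed (-0.21, adjusted p = 0.0288, beside 0.0514 and 0.0652 for the others). For Eif4e1b, probe 10405334 rose with both ligands (0.42 and 0.35), and probe 10359518 differed by 0.27 and 0.044 without passing. The probes of Eif3m, Eif4enif1 and Eif5a passed in no comparison. Whether probes of Eif2s2 or Eif4a1 also read near-identical copies of these genes was not tested.

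A further 10 probes list several gene symbols of which at least 1 is an initiation factor, and these can be assigned to no single gene. They were tested with limma over all 28815 probes. With poly I:C none of the 10 rose or fell, where 10.2% of those probes rose and 15.5% fell (25.7% in all). The 10 differences lay between -0.21 and -0.022, and 2 had an unadjusted p under 0.05. With PAM 1 of the 10 fell, by 0.31 ± 0.083 (probe 10454944, adjusted p = 0.0368), where 9.04% of all probes rose and 10.9% fell (19.9% in all). Between the ligands 3 of the 10 were lower with poly I:C, the largest by 0.41 ± 0.067 (probe 10458680, adjusted p = 0.00326), where 10.6% of all probes were higher and 13.5% lower (24.1% in all).

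**Figure D3:**
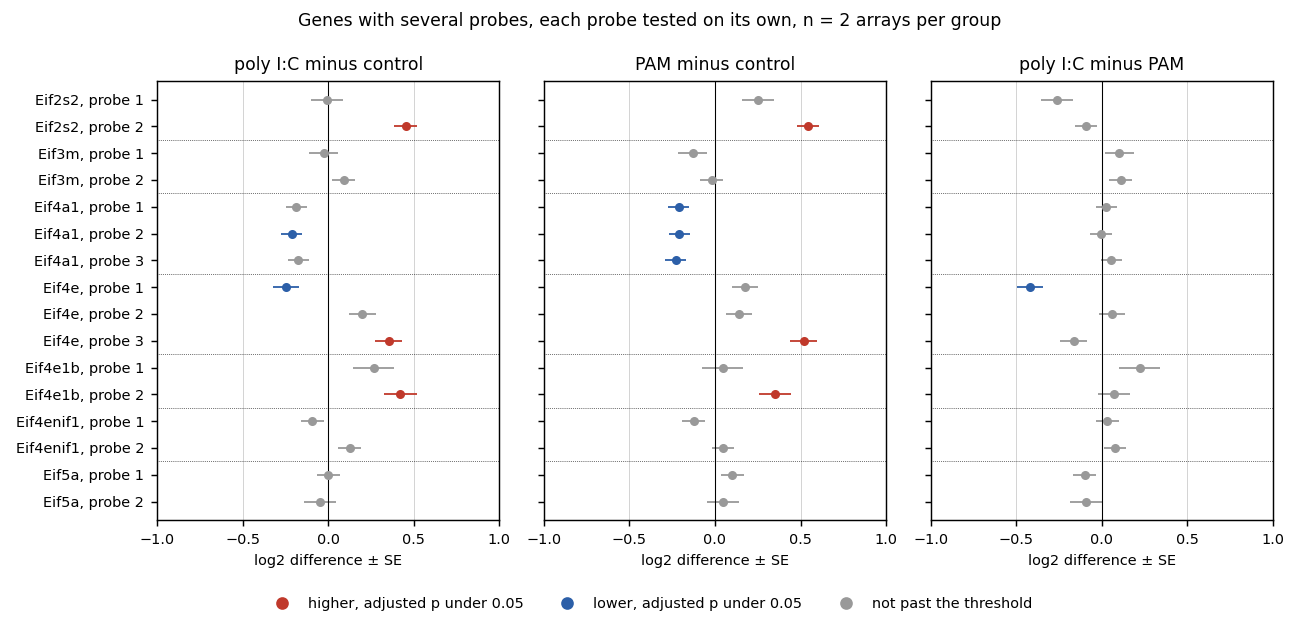
Log2 difference ± SE of each probe of the 7 genes with several probes, tested over all single-symbol probes (n = 2 arrays per group), with probes numbered in order of their identifiers and dotted lines between genes. With poly I:C the first Eif4e probe fell and the last rose, and the 3 Eif4a1 probes lie close together.

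Among the eIF4E-binding proteins 1 rose and 1 fell with poly I:C, and 1 fell with PAM. Eif4ebp1, the inhibitor best known as an mTOR target, read -0.22 and -0.13 in control cells, 0.23 and 0.17 with poly I:C and 0.047 and -0.047 with PAM. Controls were lowest and poly I:C arrays highest. It rose with poly I:C (0.38 ± 0.070, 1.3-fold, adjusted p = 0.003), and its PAM difference of 0.18 and its difference between the ligands of 0.20 did not pass (adjusted p = 0.114 and 0.066). Eif4ebp2, a related inhibitor, read 0.24 and 0.53 in control cells, -0.0038 and -0.051 with poly I:C and 0.0038 and -0.17 with PAM.

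Eif4ebp2 fell by 0.42 ± 0.10 with poly I:C and 0.47 ± 0.10 with PAM (adjusted p = 0.0132 and 0.0087). Its control arrays lay far apart, and the poly I:C call ended without control replicate 2 (-0.27, adjusted p = 0.0595), poly I:C replicate 1 (0.0609) or poly I:C replicate 2 (0.0943). The PAM call ended without PAM replicate 2 (-0.38, adjusted p = 0.0728). Eif4enif1, which shuttles eIF4E into the nucleus, differed by 0.017 and -0.039.

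Eif6 keeps the large ribosomal subunit from joining too early. It had the largest change of any member against control. Its arrays read -0.90 and -0.83 in control cells, 0.065 and 0.066 with poly I:C and -0.028 and 0.028 with PAM. Both treated groups lay far above the controls and close to each other. Eif6 rose by 0.93 ± 0.065 with poly I:C (adjusted p = 6.3e-06) and 0.87 ± 0.065 with PAM (adjusted p = 1.18e-05), and differed by 0.065 ± 0.065 between the ligands (adjusted p = 0.566). Both calls were kept without any 1 of the 6 arrays.

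Eif5a, an elongation factor that carries the modified residue hypusine, read -0.11 and 0.075 in control cells, -0.067 and -0.017 with poly I:C and 0.030 and 0.078 with PAM. Its groups overlapped and it passed in no comparison. Eif5a2, its paralog, read 0.33 and 0.12 in control cells, -0.25 and -0.12 with poly I:C and -0.12 and 0.12 with PAM. It fell with poly I:C (-0.41 ± 0.10, adjusted p = 0.0156), a call that ended without control replicate 1 (-0.30, adjusted p = 0.0638) or poly I:C replicate 1 (-0.34, adjusted p = 0.123). In bulk RNA such as this, fewer cells of a type and less RNA per cell cannot be told apart.

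No member passed by limma as higher with poly I:C and lower with PAM, the pattern the study sought. The count of members at unadjusted p-values under 0.05 was also 0. How many of all genes showed this pattern was not counted, so nothing particular to the members can be read from the 0. Eif1ax passed in the reverse order, lower with poly I:C and higher with PAM. Other members that passed between the ligands passed against control with 1 ligand (Eif1a, Eif2s3x, Eif3a, Eif3i, Eif3l and Eif4g3 with poly I:C, and Eif5b, Eif2b3 and Eif4g2 with PAM). Eif2b2 rose with both, and Eif4e3 passed with neither.

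Genes that act on the initiation factors were taken from lists named by function. Beside the counts of each list, 12.1% of all genes rose and 18.2% fell with poly I:C, and 11% and 14% with PAM. Of 10 genes for eIF2α kinases and their opposing phosphatase, 4 rose and 3 fell with poly I:C, and 4 rose and 1 fell with PAM. Eif2ak2, the double-stranded RNA sensor kinase PKR, stood at -0.67 and -0.49 in control cells, 1.48 and 1.59 with poly I:C and 0.11 and -0.11 with PAM. It rose 4.34-fold with poly I:C (2.12 ± 0.095, adjusted p = 3.43e-07) and 1.5-fold with PAM. Eif2ak3, the endoplasmic reticulum stress kinase PERK, fell with poly I:C (-0.91 ± 0.091, adjusted p = 5.9e-05) and differed by 0.036 with PAM. Ppp1r15a, the stress-induced phosphatase subunit GADD34, rose by 0.62 with poly I:C and 0.39 with PAM by limma (adjusted p = 0.00245 and 0.0323). It did not pass between the ligands (adjusted p = 0.188). The PAM call ended with only the 4 arrays compared (adjusted p = 0.0647). It also ended without control replicate 1 (difference 0.24), PAM replicate 1 (difference 0.28) or either poly I:C array.

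The catalytic phosphatase gene Ppp1cb rose with PAM (0.68 ± 0.067) and fell with poly I:C by limma (-0.20 ± 0.067, adjusted p = 0.0485). The latter call ended with eBayes with a trend (adjusted p = 0.0507) and with the replicate number as a block (adjusted p = 0.0561). It also ended with only the 4 arrays compared (adjusted p = 0.0829) and with quantile normalization (adjusted p = 0.0994). Leaving out any 1 array ended the poly I:C call of Ppp1cb too, with differences between -0.26 and -0.15. Ppp1cc fell by 0.62 with poly I:C and 0.36 with PAM. Its PAM call ended without PAM replicate 1, with a difference of -0.30. Of 15 measured mTORC1 and S6 kinase genes 1 rose and 5 fell with poly I:C, and 2 rose and 5 fell with PAM. Deptor, an mTOR inhibitor, fell by 1.25 ± 0.093 and 1.07 ± 0.093, and Rragd, a GTPase that recruits mTORC1 to the lysosome when amino acids are present, fell by 0.63 and 0.87. Larp1, which binds the starts of mTOR-controlled mRNAs, rose by 0.89 ± 0.072 with poly I:C and 0.45 ± 0.072 with PAM.

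Of 15 measured MNK kinase and eIF4 partner genes 9 fell with poly I:C, and 2 rose and 6 fell with PAM. Over all genes 18.2% fell with poly I:C, and 11% rose and 14% fell with PAM. Pdcd4, an inhibitor of the eIF4A helicase, stood at 1.25 and 1.61 in control cells, -0.21 and -0.26 with poly I:C and -0.026 and 0.026 with PAM. It fell 3.18-fold with poly I:C and 2.7-fold with PAM (adjusted p = 3.77e-06 and 1.16e-05). Mknk2, a kinase that phosphorylates eIF4E, read 0.36 and 0.39 in control cells, 0.088 and -0.088 with poly I:C and -0.97 and -0.93 with PAM. It fell by 1.33 ± 0.076 with PAM and by 0.37 ± 0.076 with poly I:C (adjusted p = 1.89e-06 and 0.00459). Under poly I:C it was higher than under PAM by 0.95 ± 0.076. Ddx3x, an RNA helicase of initiation, fell with poly I:C (-0.94 ± 0.065).

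**Figure D4:**
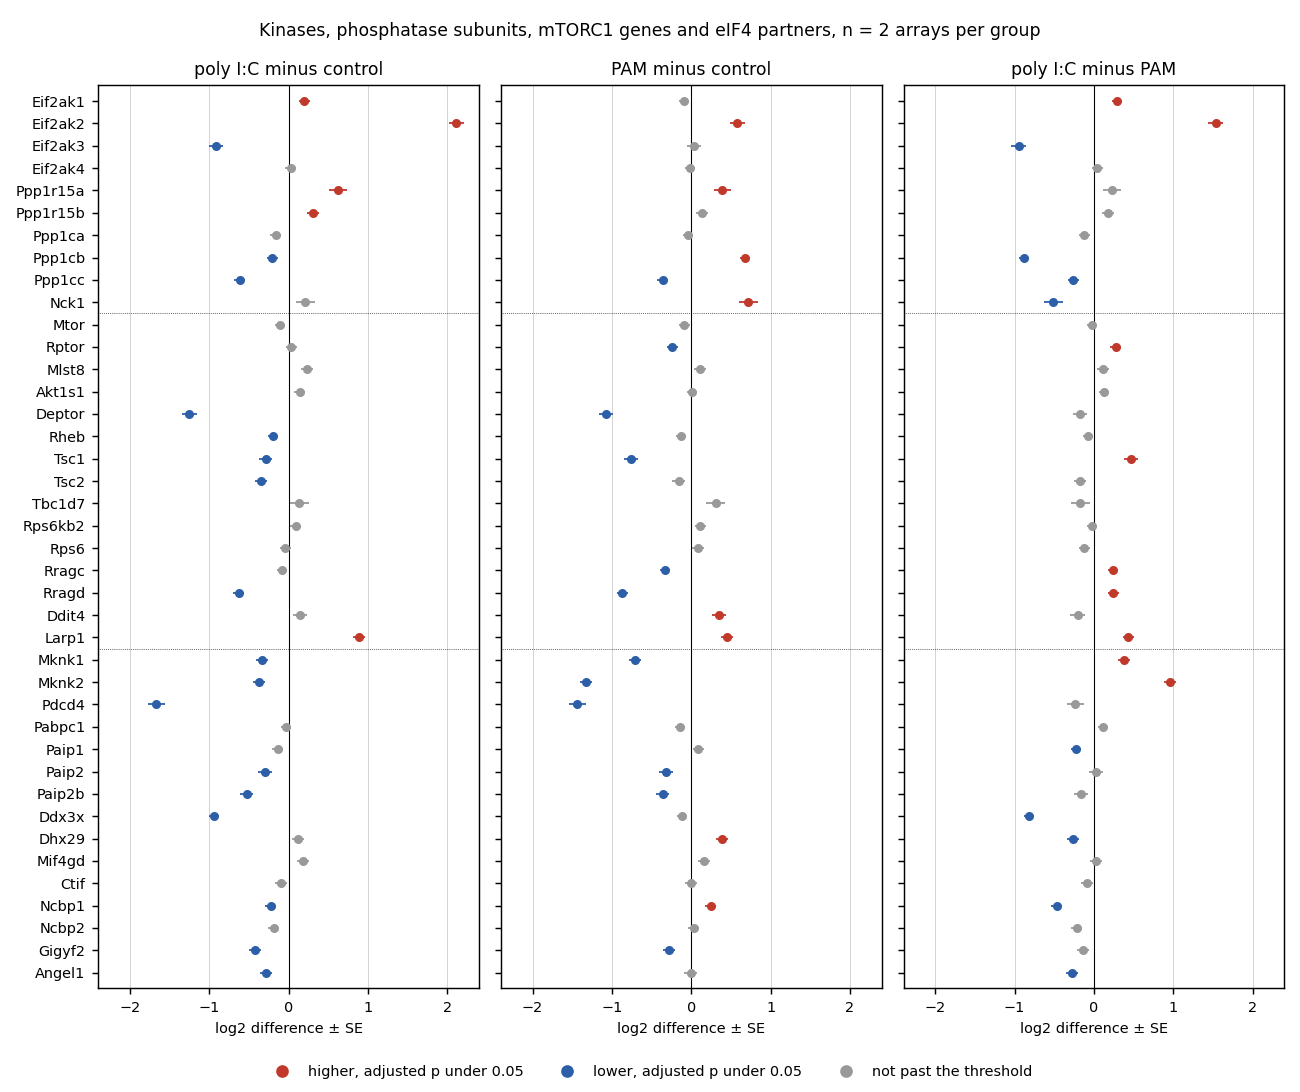
Log2 difference ± SE of the measured genes for eIF2α kinases and phosphatase subunits, mTORC1 and S6 kinase genes, and MNK kinases and other eIF4 partners (n = 2 arrays per group), with dotted lines between lists. Eif2ak2 rose 4.34-fold with poly I:C, and Pdcd4 and Deptor fell with both ligands.

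Later steps of translation were followed in the same way, beside 12.1% of all genes higher and 18.2% lower with poly I:C, and 11% and 14% with PAM. Of 11 measured elongation and hypusination genes 1 rose and 6 fell with poly I:C, and 3 rose and 4 fell with PAM. Eef1a2 fell by 0.90 and 1.06 and Eef1b2, which recharges the elongation factor eEF1A, by 0.72 and 0.45. In the list of alternative initiation and recycling, 2 of 6 rose and 2 fell with poly I:C, and 3 rose with PAM. Denr, which works in reinitiation, rose by 0.83 ± 0.076 and 0.81 ± 0.076. Abce1, the ribosome recycling factor, fell with poly I:C (-0.37) and rose with PAM (0.30), a call that ended without PAM replicate 2 (adjusted p = 0.103), and differed by -0.67 ± 0.068 between the ligands (adjusted p = 7.01e-05). Of 6 release factor genes 1 rose and 1 fell with poly I:C and 1 rose with PAM; Gspt2, a stop codon release factor, fell by 0.79 with poly I:C.

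Array medians over all probes lay between -0.0049 and 0.0072, and replicate arrays of a group correlated at 0.89 to 0.95 across genes, which are not independent replicates. Of 8 macrophage markers 2 rose and 3 fell with poly I:C, and 3 rose and 3 fell with PAM. For this and the other marker lists, the shares over all genes were 12.1% and 18.2% with poly I:C, and 11% and 14% with PAM. Markers of other cells also moved. Of 4 B cell markers Cd79b and Ms4a1 rose with both ligands, by at most 0.44 with poly I:C and 0.62 with PAM. Of 6 neutrophil markers S100a8 rose with PAM, by 2.04, while the other 5 did not pass, S100a9 among them at -0.13. Of 6 mesothelial and fibroblast markers 3 fell with poly I:C and 1 with PAM. None of 5 T and NK cell and 5 mast cell markers passed by limma (at an unadjusted p under 0.05, 1 and 1 with poly I:C and 0 and 1 with PAM). The values hold no levels, and the part of other cells in the results was not tested.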

How the data were processed

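Biotinylated cRNA of 6 samples was hybridised to an Affymetrix array, per the labels' protocols. The log2 values were deposited by the authors as 1 table of 28815 probes. Not given in the sources used here are the log base, which was taken as 2, the summarization, the background correction and the normalization. Each probe had been centred on its median in this table (largest remainder 5e-07). Of the probes 21780 had 1 annotated symbol, 1605 several and 5430 none; the last 2 kinds were left out of the tests of genes and of single-symbol probes.

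Probes of a gene were averaged and 1 mean per group was fitted over all 6 arrays with limma 3.58.1 in R 4.3.3 (lmFit, eBayes without trend; 3 residual and 5.68 prior degrees of freedom). P-values were adjusted by Benjamini-Hochberg over 19935 genes, or 21780 probes for single probes. The number of arrays limits the precision. On data simulated for the poly I:C comparison over 19935 genes, 72 of 100 genes changed 1.5-fold and 92 of 100 changed 2-fold passed, with 5 of 19735 others. Only these few genes were changed in the simulation, while 30.4% of all genes passed in the data. The adjusted threshold was therefore stricter in the simulation, and its numbers do not give the error rates of the calls reported here. A probe was taken as at 8 or above where its arrays differed by whole multiples of the rounding step of such values, within 0.2 of a step; dimmer probes can meet this by chance. Python 3.11.15 with pandas 2.3.3 and matplotlib 3.10.9 searched the promoters and drew the figures.

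Members and lists were chosen with earlier results of these data known. Array values are given for the 8 largest increases and decreases of each comparison, for genes whose probes disagreed and for Eif4e, Eif4a1, Eif4ebp1, Eif2b5, Eif5a and Eif6; partners for up to 3 per list, direction and comparison. Eif2s1 and Eif4g1, also on that list, were not analysed here.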

Additional observations from a re-analysis of the deposited data

How the results depend on the processing

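Centring the arrays, robust eBayes and eBayes with a trend kept all calls of the members in the 3 comparisons. Quantile normalization kept 21 of 23 calls with poly I:C, 15 of 18 with PAM and 12 of 12 between the ligands. Using only the 4 arrays compared kept 20, 15 and 12. Without 1 array, the members higher with poly I:C numbered 4 to 8 and those lower 8 to 12. With PAM they numbered 6 to 9 and 3 to 7, and between the ligands 1 to 3 and 8 to 9. In these fits the arm with 1 array is assumed to vary like the others. Calls kept in all 6 fits numbered 10 of 23, 7 of 18 and 9 of 12. A minimum of 1.5-fold left 2 higher and 0 lower with poly I:C, 2 and 0 with PAM, and 1 and 2 between the ligands. In either direction these were 2, 2 and 3 of 45 members, beside 2261, 1839 and 2210 of all 19935 genes. Limma without the minimum gave the counts of the report, and 26, 21 and 19 members had an unadjusted p under 0.05. The share of all genes at that unadjusted threshold was not counted. Among genes with probes at 8 or above, 6 members were higher under poly I:C than under PAM. In either direction 45.9% of the members there passed, beside 63.8% of all such genes.

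The replicate block, using the number in the titles, kept 21 of 23, 17 of 18 and 12 of 12 calls, ending Eif3f and Eif4a1 with poly I:C (adjusted p = 0.055 and 0.0627) and Eif1b with PAM (0.0573). The titles do not say that numbers pair samples, and replicate differences of the groups correlated at -0.073 (control and poly I:C), 0.15 (control and PAM) and -0.010 (poly I:C and PAM) across genes. Signs turned for these values. Eif5a with poly I:C was 0.0040 with quantile normalization, 0.00095 for its first probe, and -0.12 to 0.072 when 1 array was left out (0.072 without control replicate 2 and 0.0027 without poly I:C replicate 1). With PAM, leaving out 1 control array gave -0.026 to 0.18 for Eif2b5 and -0.021 to 0.17 for Eif5a, the lower without control replicate 1. For single probes against the gene mean, Eif2s2 was -0.0091 and Eif4e -0.25 with poly I:C, and Eif4a1 -0.0050 and Eif4e 0.059 between the ligands. The cause of these changes was not tested. Signal over background is unknown for single probes.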
